A study of Mus musculus with 2 samples.

Results

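To describe where the H3K27me3 mark lay at genes of membrane excitability and transport, the listed regions were searched for genes of ion channels, transmitter receptors and solute carriers. The genes were chosen by symbol (potassium, sodium, calcium, pacemaker, chloride, TRP and P2X channels, glutamate, GABA, glycine, acetylcholine, serotonin, dopamine and adrenergic receptors, and the Slc genes). The rule does not use their signal values, but it was set with earlier results of these data known. Only genes that a region names could be members. By this rule 59 of the 922 genes in the list were members, in 86 of its 2017 regions. The cells were chondrocytes, the matrix-producing cells of cartilage, isolated from ribs of 11 wild-type mice (wt in the labels) of CD1 background at postnatal day 2.5, pooled, and cultured overnight with 5% serum in 2 dishes of 10 cm. There was 1 library from the H3K27me3 immunoprecipitation and 1 library of input DNA (2% of the chromatin), and no other condition. Without replicates no p-value is given, and the intervals below cover counting error only. Chromatin from a pool of animals and cells cannot tell a mark on some cells from a mark on all of them.

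PRC2 trimethylates lysine 27 of histone H3, and chromatin with this mark is mostly silent. Ion channels let selected ions pass through the membrane, receptors answer transmitters released by nerve endings or glands, and solute carriers move ions, nutrients and transmitters across membranes. Many of these genes are used by few cell types, such as neurons, heart muscle, kidney or gut. Cartilage has no nerves or vessels of its own, yet chondrocytes depend on some channels and carriers, such as the sulphate carrier Slc26a2 for their matrix.

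Regions were called by the authors in mm9, the mouse genome build to which all positions here refer unless another is named. Whether positions count from 0 or 1 is not stated. A region could be listed with several genes, at most 4979 bp away. Each region has a number of ChIP tags (sequenced fragment ends) and of input tags, a height of the smoothed ChIP profile in the units of the caller, and a tag enrichment, ChIP tags over input tags, in which input below a floor of 9.20 tags per kb is raised to it. The depths of the libraries are not known here, so the ratios are not scaled for depth and show the order between loci only. The lowest height in the list was 8.0, so a weaker mark was not detectable. Member regions had 20 to 250 ChIP tags, with a median of 51.5, and 0 to 31 input tags, with a median of 6.

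The mark at these genes was of the ordinary strength of the list. Over the 86 member regions, 5898 ChIP and 730 input tags were counted, and their ratio was 8.08 (7.48 to 8.74, the exact binomial, or Clopper-Pearson, 95% interval), against 7.44 (7.33 to 7.56) over the other 1931 regions. The other 1198 regions that name a gene had 7.64 (7.50 to 7.80). The interval of the members overlapped both. Median tag enrichment was 5.77 in member regions and 5.70 in other regions, the median height 8.74 and 8.67, and the median length 1016 and 1068 bp. A height of at least 10 was reached by 12 of the 86 regions, where 13.1% of all regions reached it. At least 100 ChIP tags were found in 18 of them (18.7% of all regions), and 16 were 2000 bp or longer (16.5% of all regions). Each of these counts was close to its background. No member region had input of 2 times the floor or more, as 1.59% of all regions did, and the highest was 1.95 times, next to Cacna2d2.

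The share of genes named differed between the classes of channels, receptors and carriers, from 2 of 4 to none. Of 654 protein-coding genes with such symbols in RefSeq, 59 were named (9.02%), where 3.90% of all 21896 protein-coding genes were. This difference was not tested, since the symbol rule was set with earlier results known and neighbouring genes can share a region. The list analysed here names fewer genes than the study counts as marked over all its H3K27me3 data, so a gene not named is absent from this list only. The share was 11.5% for channels and receptors (32 of 279) and 7.20% for solute carriers (27 of 375). Among potassium channels 11 of 94 were named, among calcium channels 4 of 26, among sodium channels 3 of 14 and among pacemaker channels 2 of 4. Among adrenergic receptors the count was 3 of 9. The glutamate receptor symbols gave 5 of 19, and the fifth, Grid2ip, encodes a scaffold protein that binds a delta receptor and is not itself a receptor. In 6 of the 17 classes, with 54 genes in all, no gene was named, and the largest of these were the GABA receptors with 0 of 21. The share in this list is thus 0. Read as a sample, a count of 0 allows up to 14.3% by the rule of 3. This approximate limit is 3 over the number of genes and is not a Clopper-Pearson interval.

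**Figure D1:**
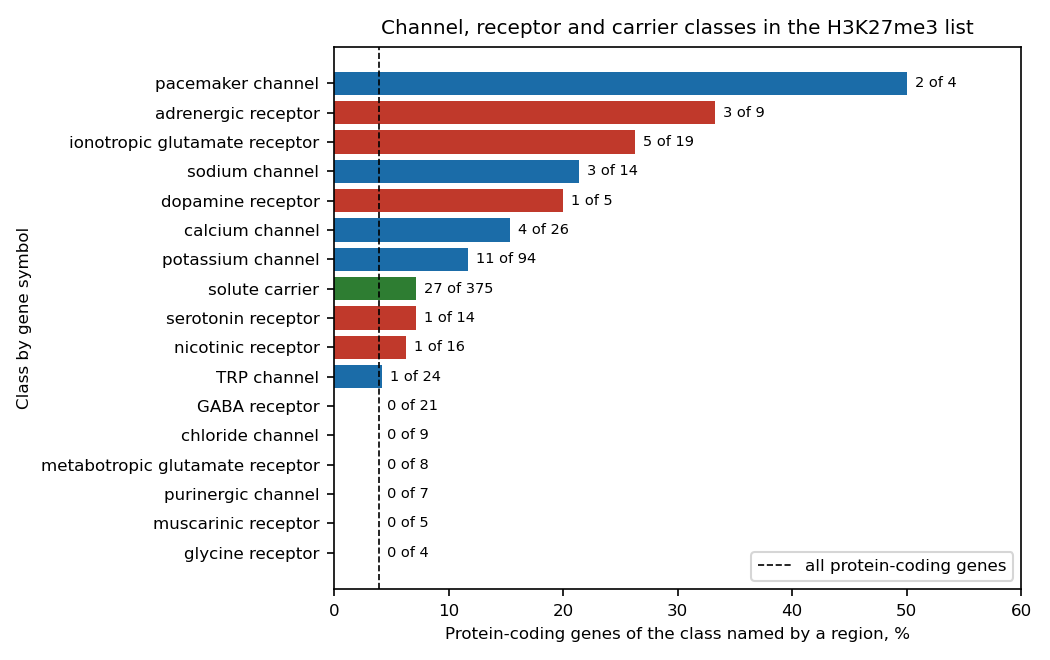
Each bar is the percentage of the protein-coding RefSeq genes of 1 symbol class that an H3K27me3 region names, with the count beside it, in blue for channels, red for receptors and green for solute carriers. The dashed line is the 3.90% of all protein-coding genes, and the small classes, such as the pacemaker channels with 2 of 4, rest on few genes.

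Among potassium channels, which set the resting potential and end the action potential, the list named 7 of the 40 voltage-gated genes, 2 of 15 inward rectifiers and 2 of 14 tandem-pore (Kcnk) channels, while 0 of 8 calcium-activated and 0 of 16 accessory genes were named. Of all protein-coding genes 3.90% were named, so 0 is no unusual count for groups of 8 or 16 genes. These differences between groups were not tested.

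Kcnk4, which encodes a leak channel opened by membrane stretch, had more sequence in regions than any other member, 6021 bp in 3 regions on chromosome 19 from 6997248 to 7005813. Its regions held 24, 180 and 100 ChIP tags, with 6, 29 and 17 input tags. All of them also name 1700019N12Rik, the 5′ end of which is overlapped by the middle region. The first and the middle region name Esrra too, and the first lies 2499 bp past the 3′ end of Kcnk4 and 950 bp upstream of Esrra. The regions thus cannot be given to Kcnk4 alone. Kcna1, a delayed rectifier of nerve axons, had both of its regions upstream, 396 and 4398 bp from the 5′ end, with 111 and 91 ChIP tags and 16 and 14 input tags. At Kcnh3, a channel of forebrain neurons, 2 regions separated by 122 bp began 70 bp inside the gene and held 104 and 93 ChIP tags and 15 and 16 input tags. Kcnj4, an inward rectifier of brain and heart, had 1 region 204 bp inside the gene and 1 region 2580 bp upstream, with 44 and 39 ChIP tags and 6 and 2 input tags.

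Other potassium channel genes had 1 region each. Kcnj9, a subunit of channels opened by G proteins, was overlapped at its 5′ end by a region with 69 ChIP and 9 input tags. Kcnk13, a leak channel, had 81 ChIP and 9 input tags at 2673 bp from the 5′ end, and Kcng3, a modifier subunit that does not form channels by itself, had 50 and 12 at 4899 bp. Kcnd3, of the transient outward current, had a small region of 505 bp, at 8825 bp from the 5′ end, with 29 ChIP and 2 input tags. Kcna7 was named by a region 4289 bp past its 3′ end with 85 ChIP and 6 input tags, but this region overlaps the neurotrophin gene Ntf5.

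Sodium and calcium channel genes, which start the action potential and couple it to transmitter release or contraction, carried several regions that lay far inside the gene. Scn8a, the main sodium channel of axon initial segments, had 4 regions on chromosome 15 with 47, 70, 38 and 56 ChIP tags and 0, 10, 2 and 8 input tags, in order along the chromosome. The distances given for the former pair lead back to 1 position and those of the latter pair to another, 65588 bp away, so the list used more than 1 start for this gene. The region without input tags (chromosome 15, 100704244 to 100705130) reached a height of 10.4. For Scn4b, an accessory beta subunit, the regions lay 10541 and 12516 bp inside the gene, with 40 and 62 ChIP tags and 2 and 8 input tags.

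At Cacna2d2, an accessory subunit of calcium channels, the highest of all member regions (chromosome 9, 107431892 to 107432449, height 12.5) lay 218 bp past the 3′ end. It also had the highest input height of the members, 3.56, and for 41 ChIP and 10 input tags the ratio was 4.10 (2.02 to 9.18). The region near the start of this gene, 441 bp inside it, held 117 ChIP and 11 input tags, a ratio of 10.6 (5.73 to 21.9), and the remaining region, 8196 bp inside, held 34 and 6. The related Cacna2d3 had 45 ChIP and 5 input tags at 1127 bp from the 5′ end. Cacna1b, the N-type channel of nerve endings, had 49 and 6 at 941 bp. Cacna1a, the P/Q-type channel, had regions only at 141388 and 143539 bp from its 5′ end, with 42 and 26 ChIP tags and 5 and 0 input tags.

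The pacemaker channels open on hyperpolarization, and Hcn4 drives the sinus node of the heart. Hcn4 and Hcn3 each had 1 region inside the gene, 1011 and 1443 bp from the 5′ end, with 69 and 57 ChIP and 6 input tags each. Trpc1, a cation channel of many tissues, was named by 1 region 2928 bp upstream with 34 ChIP and 2 input tags, which overlaps the neighbouring gene Pls1. It was the only 1 of 24 TRP channel genes that was named (4.17%), near the 3.90% of all protein-coding genes.

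Among receptors for glutamate, the main excitatory transmitter of the brain, the NMDA receptor genes Grin1 and Grin2c were named out of 7 Grin genes. Grin1, the subunit that every NMDA receptor needs, was overlapped at its 5′ end by a region of 1686 bp (chromosome 2, 25173312 to 25174997) with 93 ChIP tags, 10 input tags and a height of 10.9. Its other region, with 75 and 4 tags, lay 158 bp past the 3′ end and overlaps Lrrc26. Grin2c, used in the cerebellum, had 3 regions between 3438 and 10054 bp inside the gene with 75, 122 and 59 ChIP tags and 14, 13 and 13 input tags, and none at its 5′ end. Grik3, a kainate receptor, had a region on either side of its start and 4 in all. The 2 upstream regions held 85 and 67 ChIP tags and 8 and 2 input tags, the region 3927 bp inside 30 and 4, and the region 104573 bp inside 47 and 8. Grid1, a delta receptor, had 64 ChIP and 5 input tags at 1824 bp from its 5′ end. No gene of the AMPA receptors (0 of 4 Gria genes) or of the metabotropic receptors (0 of 8 Grm genes) was named. Groups this small can well have none at the 3.90% of all protein-coding genes, and no difference was tested.

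For receptor genes of monoamines and acetylcholine, the counts stand beside the 3.90% of all protein-coding genes that were named, and were not tested. The list named 3 of 9 adrenergic, 1 of 5 dopamine, 1 of 14 serotonin, 1 of 16 nicotinic and 0 of 5 muscarinic genes. Each of those named had a region within 2500 bp of its 5′ end, as did 56.1% of all listed genes. Adra2b, an adrenergic receptor that lowers transmitter release and constricts vessels, was overlapped at its 5′ end by a region with 118 ChIP and 7 input tags, a ratio of 16.9 (7.93 to 42.8). Adra2c had 2 upstream regions at 943 and 3986 bp with 93 and 36 ChIP tags and 14 and 4 input tags, and Adrb1, the main beta receptor of the heart, 1 upstream region at 1220 bp with 104 and 10. Of the Adra1 genes 0 of 3 were named. The dopamine receptor gene Drd2 had 69 ChIP and 15 input tags 512 bp upstream, the nicotinic subunit Chrna5 31 and 8 at 1006 bp upstream, and the serotonin receptor gene Htr6 81 and 23 at 188 bp inside. Their ratios were 4.60 (2.61 to 8.66), 3.88 (1.74 to 9.76) and 3.52 (2.19 to 5.87). Input in these 3 regions was above the floor, at 1.32, 1.70 and 1.54 times, and its part in the low ratios was not tested.

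The named solute carriers included some that load transmitters into vesicles. The counts here and below run over whole families as numbered in the symbols, beside 3.90% of all protein-coding genes named. Slc17a7 and Slc17a6, the vesicular glutamate transporters of the forebrain and of deeper brain regions, were 2 of 9 Slc17 genes. Slc17a7 had 4 regions on chromosome 7 from 52420740 to 52435921, 2 inside and 2 past the 3′ end, with 47, 168, 73 and 31 ChIP tags and 4, 30, 14 and 4 input tags. Those past the 3′ end also name Pth2, a peptide hormone gene. Slc17a6 had 2 small regions, 1324 and 3394 bp inside the gene, with 33 and 29 ChIP tags and 4 and 3 input tags. Slc32a1, which loads GABA and glycine into vesicles and is alone in its family, had 38 and 6 tags in a region 2308 bp inside the gene and 20 and 0 in another past the 3′ end. The vesicular acetylcholine transporter gene Slc18a3 lies within the gene of the enzyme that makes acetylcholine, Chat, and 1 region with 54 ChIP and 5 input tags overlapped both. Slc30a3, which fills vesicles with zinc, had a single region of 4317 bp with 211 ChIP and 22 input tags.

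Transmitters are taken up through the plasma membrane by carriers of the Slc6 family, of which 3 of 21 genes were named, and, for glutamate, of the Slc1 family, of which 0 of 7 were. The glycine transporter gene Slc6a5 had 87 ChIP and 12 input tags at 4426 bp from its 5′ end, and the serotonin transporter gene Slc6a4 had 37 and 1 at 1977 bp. Slc6a7, a proline transporter of the brain, had a region over its 5′ end with 117 and 12 tags and a second, 352 bp further upstream, with 23 and 2. Both Slc6a7 regions also name the homeobox gene Cdx1 in the neighbourhood. Slc7a10, an exchanger of small neutral amino acids in glia, had 51 ChIP and 4 input tags 155 bp inside the gene.

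Other named carriers act in tissues such as gut, kidney or liver. Slc5a1, the sodium and glucose carrier of the intestine, had a region of 3861 bp (chromosome 5, 33445446 to 33449306) that ran from 1422 bp upstream to 2438 bp inside the gene with 194 ChIP and 15 input tags. A second Slc5a1 region held 24 and 2, and both gave a ratio of 12.8 (7.83 to 22.4). Slc34a1, the renal phosphate carrier, had a narrow region of 473 bp and a height of 11.1 at 3151 bp inside the gene (33 and 4 tags), and another past the 3′ end that overlaps the clotting factor gene F12 (42 and 2). Slc47a1 and Slc47a2, extruders of organic cations, are the whole Slc47 family and shared 1 region with 101 ChIP and 16 input tags, which lay inside Slc47a1 and 350 bp upstream of Slc47a2. Slc27a2, which activates and imports fatty acids in liver and kidney, was overlapped at its 5′ end with 52 and 6 tags. Slc13a3, a dicarboxylate carrier, had 31 and 4 tags and Slc36a2, an amino acid carrier, 37 and 1, at 20642 and 12758 bp inside the gene.

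The longest region of any member, 4489 bp on chromosome 11 from 70037058 to 70041546 with 250 ChIP and 30 input tags, was listed with Slc16a13, of the monocarboxylate carrier family. It lay 2562 bp upstream of that gene and overlapped Bcl6b, a transcriptional repressor gene. In the same way the region of Slc25a23, a mitochondrial carrier, with 161 and 24 tags, lay 2434 bp upstream of it and overlapped Crb3, a cell polarity gene, 20 bp from the 5′ end of Crb3. The region of Slc26a10 with 27 and 0 tags overlapped B4galnt1. Slc25a23 was the only named gene of the 47 mitochondrial Slc25 carriers. The remaining carrier genes were Slc9a2, a sodium and proton exchanger, Slc24a1, a calcium exchanger of rod cells, Slc30a10, Slc35d3, Slc35f2, Slc35f3, Slc45a3 and Slc7a8, with 1 region each, which held 26 to 68 ChIP tags and 1 to 7 input tags. In all, 19 Slc families had a named gene, while 5 families of 10 or more genes had none, namely the glucose carriers Slc2 (12 genes), the bicarbonate carriers Slc4 (11), the organic ion carriers Slc22 (25), the amino acid carriers Slc38 (11) and the zinc carriers Slc39 (14). Since only 3.90% of all protein-coding genes were named, 0 is no unusual count for a family of this size, and no difference was tested.

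A region was counted as inside when it overlapped the gene but not its 5′ end, and most lay there, as in the whole list. Of the 87 pairs of a region and a member gene, 6 overlapped the 5′ end (6.06% of all 1535 pairs in the list did). Inside the gene lay 51 (58.6%, against 50.9% of all pairs), upstream 21 (24.1% against 26.8%) and past the 3′ end 9 (10.3% against 16.3%). These differences were not tested. The region touched the gene in 57 pairs, or 65.5% (54.6 to 75.4), where 56.9% of all pairs did, within this interval. For 38 of the 59 genes at least 1 region came within 2500 bp of the 5′ end, against 56.1% of all listed genes. The median distance to the 5′ end was 2673 bp for members and 3466 bp for other genes. For 17 of the 59 member genes all regions lay outside the gene (36.2% of all listed genes).

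There were 2 or more regions at 19 of the 59 genes (36.4% of all listed genes), with 4 at Grik3, Scn8a and Slc17a7. Between neighbouring regions of 1 gene there were 28 gaps, of which 17 were at most 3000 bp. Gaps of over 10000 bp were found at 6 genes, among them Cacna2d2, Grik3, Grin1, Scn8a and Slc34a1, the largest of 120866 bp at Cacna2d2. Gaps at other listed genes are not given here, so these counts are not read as particular to the members. At 18 of the 19 genes the listed distances led back to 1 common 5′ end, and Scn8a was the exception.

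**Figure D2:**
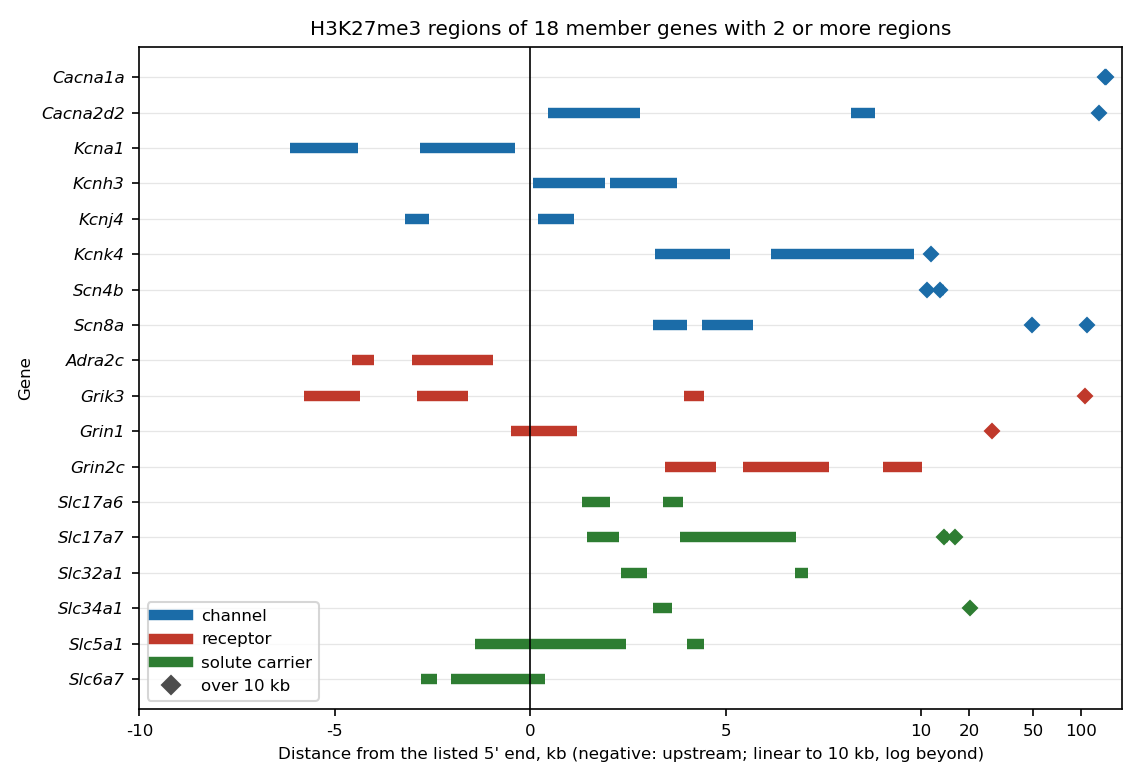
Each bar is an H3K27me3 region of 1 of 18 member genes with 2 or more regions, placed by its distance in kb from the listed 5′ end (0), with upstream to the left, in blue for channels, red for receptors and green for solute carriers. The axis is linear to 10 kb and logarithmic beyond, where a diamond marks the middle of a region, and distances of Scn8a refer to 2 starts. Regions of Grin1, Slc5a1 and Slc6a7 cross the 5′ end.

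Promoters of 5 of the 6 genes with a region over the 5′ end (all but Slc6a7) are shown because the mark is known to lie at CpG-rich starts in many cells. RefSeq (build GRCm38.p6) gave a promoter sequence for 46 of the 59 members, or 78.0%, too few for a comparison of CpG content over the group, which is therefore void. The sequences are the 250 bases before the RefSeq start, with each CpG in capitals. That build differs from mm9, so whether a window lies inside the region was not checked.
Adra2b: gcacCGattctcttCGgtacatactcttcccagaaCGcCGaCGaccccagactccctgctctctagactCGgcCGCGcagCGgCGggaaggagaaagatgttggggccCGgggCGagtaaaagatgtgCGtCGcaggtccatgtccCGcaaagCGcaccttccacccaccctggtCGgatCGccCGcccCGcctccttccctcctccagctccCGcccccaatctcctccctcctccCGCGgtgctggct
Grin1: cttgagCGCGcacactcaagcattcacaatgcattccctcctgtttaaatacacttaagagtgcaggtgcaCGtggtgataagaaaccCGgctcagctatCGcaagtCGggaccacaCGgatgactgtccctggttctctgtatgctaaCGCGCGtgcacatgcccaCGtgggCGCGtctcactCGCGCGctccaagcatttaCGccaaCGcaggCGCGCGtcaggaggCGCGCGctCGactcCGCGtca
Slc27a2: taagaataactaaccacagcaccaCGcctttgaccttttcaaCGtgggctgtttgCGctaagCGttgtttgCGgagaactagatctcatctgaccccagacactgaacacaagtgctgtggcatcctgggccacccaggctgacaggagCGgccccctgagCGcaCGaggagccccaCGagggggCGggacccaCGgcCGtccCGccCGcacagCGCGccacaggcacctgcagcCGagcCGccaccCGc
Slc5a1: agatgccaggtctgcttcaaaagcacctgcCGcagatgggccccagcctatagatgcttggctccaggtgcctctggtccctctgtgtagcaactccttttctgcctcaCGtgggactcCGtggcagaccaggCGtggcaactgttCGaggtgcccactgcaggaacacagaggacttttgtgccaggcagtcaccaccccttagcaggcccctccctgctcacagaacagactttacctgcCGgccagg
Kcnj9: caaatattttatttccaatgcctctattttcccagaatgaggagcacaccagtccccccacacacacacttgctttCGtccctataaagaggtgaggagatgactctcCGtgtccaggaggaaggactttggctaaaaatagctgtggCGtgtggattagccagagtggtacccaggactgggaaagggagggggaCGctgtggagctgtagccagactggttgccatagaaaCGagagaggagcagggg
These windows are at chr2:127362929-127363178 (plus strand) for Adra2b, chr2:25319188-25319437 (minus) for Grin1, chr2:126552774-126553023 (plus) for Slc27a2, chr5:33103969-33104218 (plus) for Slc5a1 and chr1:172329323-172329572 (minus) for Kcnj9, in GRCm38.p6. The letters CG, which read the same on both strands, occurred 23 times at Adra2b, 27 times at Grin1 and 19 times at Slc27a2. Of all 32851 RefSeq windows of this length, 13.3%, 8.56% and 19.7% held at least as many. Slc5a1 had 6 and Kcnj9 had 5, and 50.4% and 55.6% of windows held at least as many. The 5 windows thus range from many CpGs to few.

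The strength of the mark, as the ratio of ChIP to input tags over all regions of a gene, had wide intervals at most genes. Its median was 9.0 and it ran from 3.52 to 37.0 over the 57 genes with input tags, while 2 genes, among them Slc26a10, had 0 input tags. The highest values, 37.0 at Slc6a4 (6.24 to 1500) and Slc36a2 and 35.0 at Slc35d3, rest on 1 input tag each. The interval lay wholly above the 7.47 of all regions at 3 genes, among them Adra2b and Slc5a1 (8.89% of all listed genes). It lay wholly below at 2 genes, Htr6 and Grid2ip (5.75% of all listed genes). Both counts, out of 59, are no higher than these backgrounds. Grid2ip had 126 ChIP and 31 input tags, a ratio of 4.06 (2.73 to 6.23), with input at 1.42 times the floor. Pooled over classes, the ratio was 8.17 (7.21 to 9.28) for channels, 7.12 (6.12 to 8.33) for receptors including Grid2ip and 8.70 (7.65 to 9.93) for solute carriers, with intervals that overlap.

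**Figure D3:**
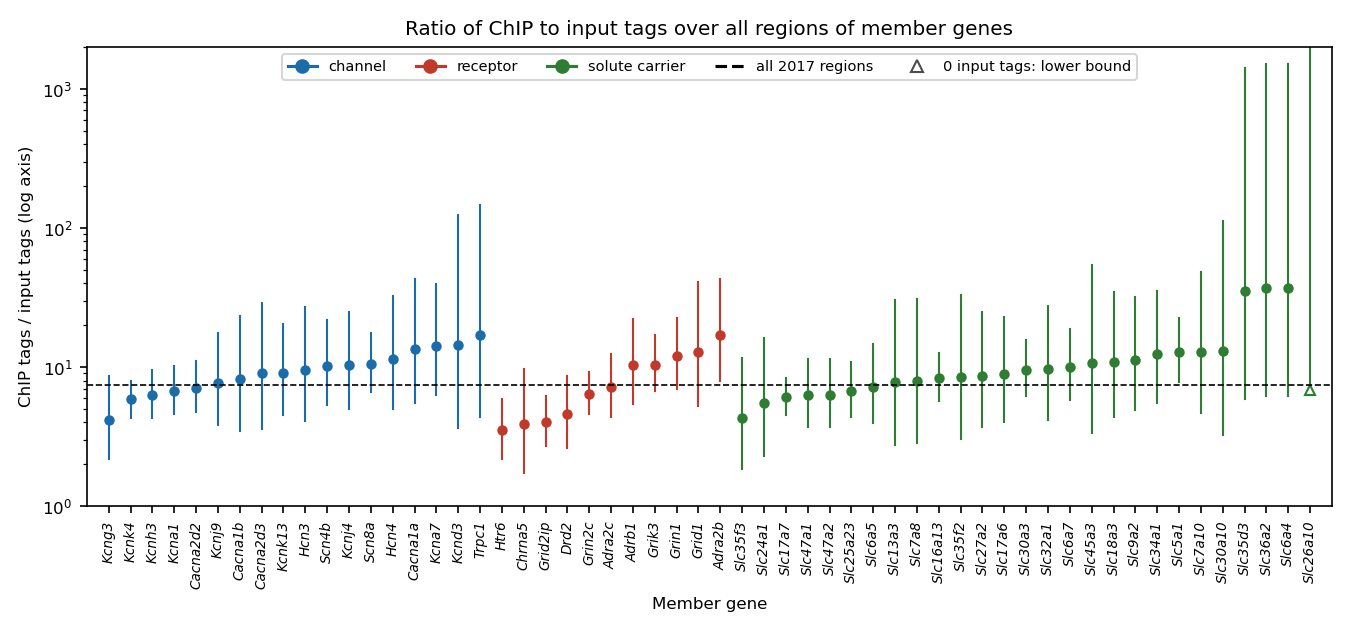
Points give the ratio of ChIP to input tags (log axis) over all regions of each of 56 member genes, grouped into channels (blue), receptors (red) and solute carriers (green), with 95% Clopper-Pearson intervals as bars. The dashed line is the 7.47 of all 2017 regions, the open triangle is the lower bound of Slc26a10, with 0 input tags, and only Htr6 and Grid2ip have intervals wholly below the line.

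The highest member regions were short as well as long. The 12 regions with a height of at least 10 belonged to 12 genes, among them Cacna2d2, Slc34a1, Grin1, Kcnk4, Slc25a23, Scn8a, Grid2ip, Trpc1, Kcnh3, Slc16a13 and Kcna7. Of these, the regions of Cacna2d2, Slc34a1 and Trpc1 were only 558, 473 and 545 bp long. On the other side, 51 of the 86 regions had a height under 9, as had 64.7% of all regions.

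**Figure D4:**
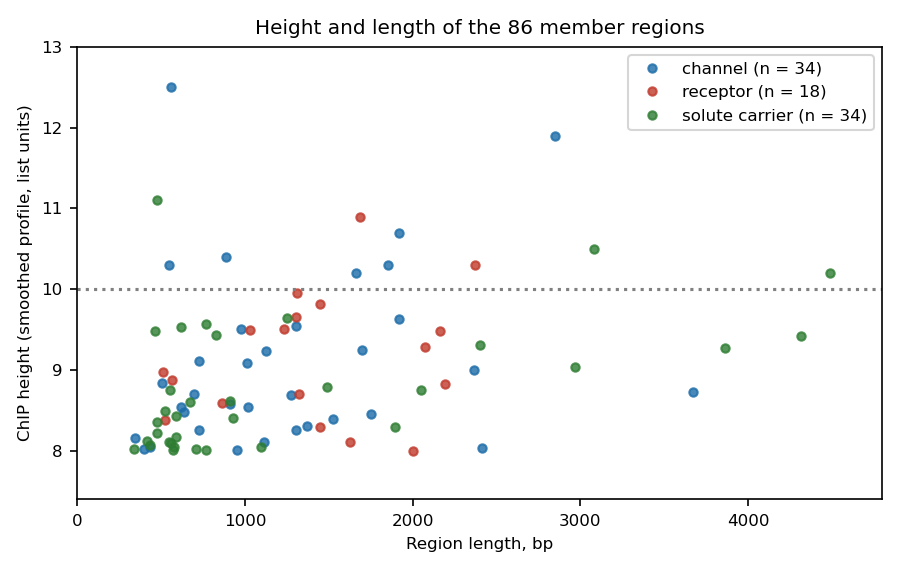
Each point is 1 of the 86 member regions, with its length in bp and its ChIP height in the units of the caller, coloured by channel (34 regions), receptor (18) and solute carrier (34). The dotted line marks a height of 10, which 12 regions reach, both short ones such as that of Cacna2d2 (558 bp) and long ones such as that of Slc16a13 (4489 bp).

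Regions were partly shared with genes of other kinds. Of the 86 regions, 18 also named a gene outside the rule, and for 9 member genes this held for every region. Of the 30 pairs in which the region lay outside the member gene, it overlapped such a gene in 8. Shares of this kind over the whole list are not given here, so these counts are not read as particular to the members. The list cannot tell which of the genes the mark belongs to.

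The members held none of the channels and carriers looked up for their use in cartilage. Of 30 genes such as Slc26a2, the stretch-sensitive Trpv4, the glucose carrier Slc2a1 and the phosphate carriers Slc20a1 and Slc20a2, 0 were named. Read as a sample, this allows a share of up to 10.0% by the rule of 3. This and the other lists here were chosen with earlier results of these data known, so the 0 could follow from the choice. Of all protein-coding genes 3.90% were named, at which 0 of 30 is no unusual count. No difference from that share or from the 9.02% of all such symbols was tested. Of 16 genes of chondrocyte identity with a RefSeq symbol, such as Col2a1, Acan and Sox9, 0 were named as well (up to 18.8% by the same rule). This count and those below stand beside the 3.90% of all protein-coding genes named, at which 0 of 16 is no unusual count. Of the genes looked up for other cells of a rib preparation, 1 of 5 bone genes was named, Col1a1, a collagen gene of bone and fibrous tissue, by 1 region 280 bp upstream with 52 ChIP and 2 input tags, while 0 of 4 muscle, 0 of 2 endothelial and 0 of 2 blood genes were, numbers too small to set a useful limit. A gene that is not named had no called region listed with it, and listed genes lay at most 4979 bp from their region. A mark below a height of 8.0 is not in the list, and the mark does not measure expression.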

How the data were processed

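H3K27me3 was measured by ChIP-seq with an enzymatic chromatin kit in 1 ChIP and 1 input library, without replicates. The total depth of either library is unknown here. The authors mapped reads to mm9 with the DNA Nexus mapper and called regions with QuEST against input. Versions and settings are not given in the sources used here. The deposited list holds whole counts of ChIP and input tags per region. The deposited tag enrichment is the ratio of these counts, with input below 9.20 tags per kb raised to that floor, a rule that gave the listed value within 0.1% in all 2017 regions when both end positions were counted as part of the region. The deposited signal is the peak height of the profile after smoothing, in ChIP and in input, and a deposited fold of both was not needed. The authors gave each q-value on the −log10 scale.

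Members were found by gene symbol, and members and lists were chosen with earlier results of these data known. Counts cover all members, of which 3 are not reported by name here. The others are named, and every region is given for genes with 2 or more regions, the 10 with the most sequence in regions, the 5 with the most ChIP tags in 1 region, the 5 highest, and the gene with the most tags of each class. Other single regions were given as well. Ratios of tags have 95% Clopper-Pearson intervals of the share of ChIP tags, which treat tags as independent. Positions of regions on genes follow from the listed distances to the gene and to its 5′ end. Intervals and position classes were tested on simulated data. Of the 922 listed genes, 832 matched a RefSeq symbol (GRCm38.p6) and 80 a single synonym, and all 59 members matched. RefSeq gave class sizes and promoter sequences only, and its coordinates were not compared with mm9. Alternatives were a height of at least 10, a −log10 q-value of at least 50, overlap with the gene, a distance of at most 2500 bp from its start, input below 2 times the floor, merging within 3000 bp, and leaving out regions that also name other genes. Scripts ran in Python (3.11.15) with scipy (1.17.1), pandas (2.3.3), numpy (2.4.6) and, for figures, matplotlib (3.10.9).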

Additional observations from a re-analysis of the deposited data

How the results depend on the processing

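Of 41 recomputed values, 33 stayed within 1.5 times the main count or inside the 95% interval of the main value. The other 8 were counts, or shares, of fewer regions. With a height of at least 10 there were 12 member genes and 12 regions, of which 33.3% lay within 2500 bp of a 5′ end, against 46.5% of all 86. With a −log10 q-value of at least 50 there were 31 genes and 39 regions, keeping those at most 2500 bp from a start 38 genes and 40 regions, and with only regions overlapping the gene 57 regions. The share of members among listed genes, 6.40% in the full list, was between 5.58% and 7.35% under the alternatives, and the ratio of ChIP to input tags between 7.58 and 8.54. For regions within 2500 bp of the 5′ end the share near a 5′ end is fixed by the limit and was not computed. Input below 2 times the floor left out no member region, so its values for members could not move. Merging could not change the count of member genes or their share of listed genes. Such values count among the 33 without being a check. No paired analysis was possible because there is 1 library of each kind. Small regions with 0 or 1 input tags give ratios with wide intervals.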

Other observations

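Genes of related function outside the symbol rule were listed as well. Of 88 protein-coding genes of synapses and neurosecretion, 13 symbols were named, where 3.90% of all protein-coding genes were. Among the 13 were Gad1 and Gad2, which make GABA, Npy, a neuropeptide, and the synaptotagmin genes Syt3, Syt6 and Syt16. At Npy 187 ChIP and 11 input tags fell in 2 regions, with a ratio of 17.0 (9.29 to 34.6, as in the report), Gad1 2 regions with 124 and 17, and Gad2 1 region with 42 and 9. The enzyme gene Chat shared the region of Slc18a3.

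Of 157 genes of other transmitter and peptide receptors 12 were named, such as the galanin receptor gene Galr3, the histamine receptor genes Hrh1 and Hrh3, the somatostatin receptor gene Sstr4 and the incretin receptor gene Glp1r. Glp1r had 248 ChIP and 65 input tags in 2 regions, and its ratio was 3.82 (2.89 to 5.09). Of 184 genes of other channels and transporters 10 were named, among them the water channel genes Aqp2 and Aqp5, with 239 and 129 ChIP tags and 34 and 12 input tags, the connexin genes Gjb1 and Gjb6, and Accn1, an acid-sensing channel gene, with 3 regions. These lists are defined by the first letters of symbols, and Atp13a3 and Sytl1 were included by their letters alone. The counts of 12 of 157 and 10 of 184 stand beside the same 3.90% of all protein-coding genes. No test was made on any of these counts.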
